A study of Mus musculus with 9 samples.

Results

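Microglia isolated from an amyloid mouse model were compared with microglia from wild type mice across 13627 genes, out of 18571 genes in the deposited table. The members were chosen by 1 rule, a mean of at least 1 CPM (counts scaled to library size) over the 6 libraries compared, so genes of every pathway entered. Both groups came from mice on a C57BL/6J background that were 9 months old, and all mice received tamoxifen by gavage at 0.1 mg/g for 5 days from 8 months of age, per the labels. The 3 WT libraries carry the genotype label WT, and the 3 APP/PS1 libraries come from mice with the APP and PS1 transgenes, which express human proteins of familial Alzheimer disease and deposit amyloid in the brain. The labels name neither the transgenic line nor the promoter that drives the transgenes. Cells were captured with a CD45 antibody on panning plates from papain-digested cortex and hippocampus after the meninges had been removed. CD45 is carried by all leukocytes, so the capture does not select microglia alone. Poly-A RNA was sequenced as single-end reads of 50 nucleotides. The series also holds 3 libraries of APP/PS1 mice with floxed Cx43 and Cx3cr1-CreER, which are not compared here but entered the filter, the TMM scaling and the estimate of the spread.

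Microglia are the resident macrophages of the brain. They survey the tissue, engulf debris and synapses, and gather around amyloid deposits, where their receptors and lysosomes handle lipid and protein. This state is known for a set of disease-associated genes that includes Cst7, Lpl, Itgax and Spp1. The lists below also cover general machinery of the cell: ribosomes, mitochondria, proteasomes, sterol synthesis and the cell cycle.

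Total estimated counts ran from 18907681 to 19348426 in the 6 libraries. Libraries within a group were close, with a biological coefficient of variation of 3.14%. The labels do not say whether libraries of a group came from separate mice, so p-values measure only the spread between these libraries, which may be technical. The 10 microglial markers had group means of 195 CPM or more in both groups, and their sum ran from 19754 to 20111 CPM in WT and from 23895 to 24274 CPM in APP/PS1. Mouse App was at 501, 498 and 502 CPM in WT and 519, 515 and 525 CPM in APP/PS1, a log2 change of 0.05 (SE 0.026, edgeR adjusted p 0.0870), and was called once same-numbered libraries were blocked (edgeR adjusted p 0.00202). It was also called higher with DESeq2 (adjusted p 0.0189), with the 6 libraries alone and with length offsets. Its direction turned, and was called, with counts scaled by library totals, at -0.084 (p 0.00615 after adjustment in edgeR). The same held for TPM, at -0.33 (p 2.00e-07 after adjustment in limma). Prnp, the prion protein gene, differed by 0.29 (edgeR adjusted p 1.95e-09), and by -0.098 on TPM. Human transgene reads were not analysed here, so mouse App does not check the label. Gja1, which encodes connexin 43 and is a known astrocyte gene, differed by 0.24 (edgeR adjusted p 0.000662), and by -0.14 on TPM.

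Most of the measured transcriptome differed between the groups. An edgeR adjusted p under 0.05 (called, below) was reached by 8440 members, which is 61.9%, with 3872 higher in APP/PS1 (28.4%) and 4568 lower (33.5%). A change of at least 2-fold was reached by 1086 of the called members (7.97%), of which 656 were higher (4.81%) and 430 lower (3.16%). The groups did not overlap for 8998 members (66.0%). The split between higher and lower rested on the scaling. With TMM factors 45.9% of the called members were higher, with library totals alone 29.6%, on TPM 14.8%, and on FPKM 30.3% with either pseudocount. The split turned to 51.6% higher with TMM on the 6 compared libraries alone, and was 50.1% with DESeq2 and 49.3% with length offsets. The median log2 change of all members was -0.03 with TMM, -0.17 with library totals and -0.37 on TPM, and list medians below are read against these. On TPM 1626 of the 13627 members were called higher and 9367 lower, and TPM counts of lists below are read against those. Of the 1086 members past 2-fold, 814 lay outside every list used here, as did 12138 of all 13627 members.

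To describe the program across pathways, 38 lists covering 1398 members were summarised by their calls and medians, with no test of a list. Disease-associated genes had the highest median log2 change, 1.57, with 33 of 34 called higher and 26 of them past 2-fold. That list was defined in other amyloid models and is the known part. Cytosolic ribosomal proteins (median 1.14), respiratory chain subunits (1.07), mitochondrial ribosomal proteins (0.62), proteasome subunits (0.62) and cholesterol synthesis (0.57) came next. Mitosis (median -0.89), DNA replication (-0.61), the circadian clock (-0.33) and immediate early genes (-0.27) had the lowest medians. Relative to the median of all members, 33 of 38 lists kept their side of it with TMM, library totals, TPM and length offsets alike, and 30 did so with medians rounded to 2 decimals, where a difference of 0 was not counted as kept. TMM, library totals and TPM differ mainly by a factor per library, which subtracting this median takes out. Their agreement was therefore largely fixed in advance, and only the length offsets are a separate comparison.

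**Figure D1:**
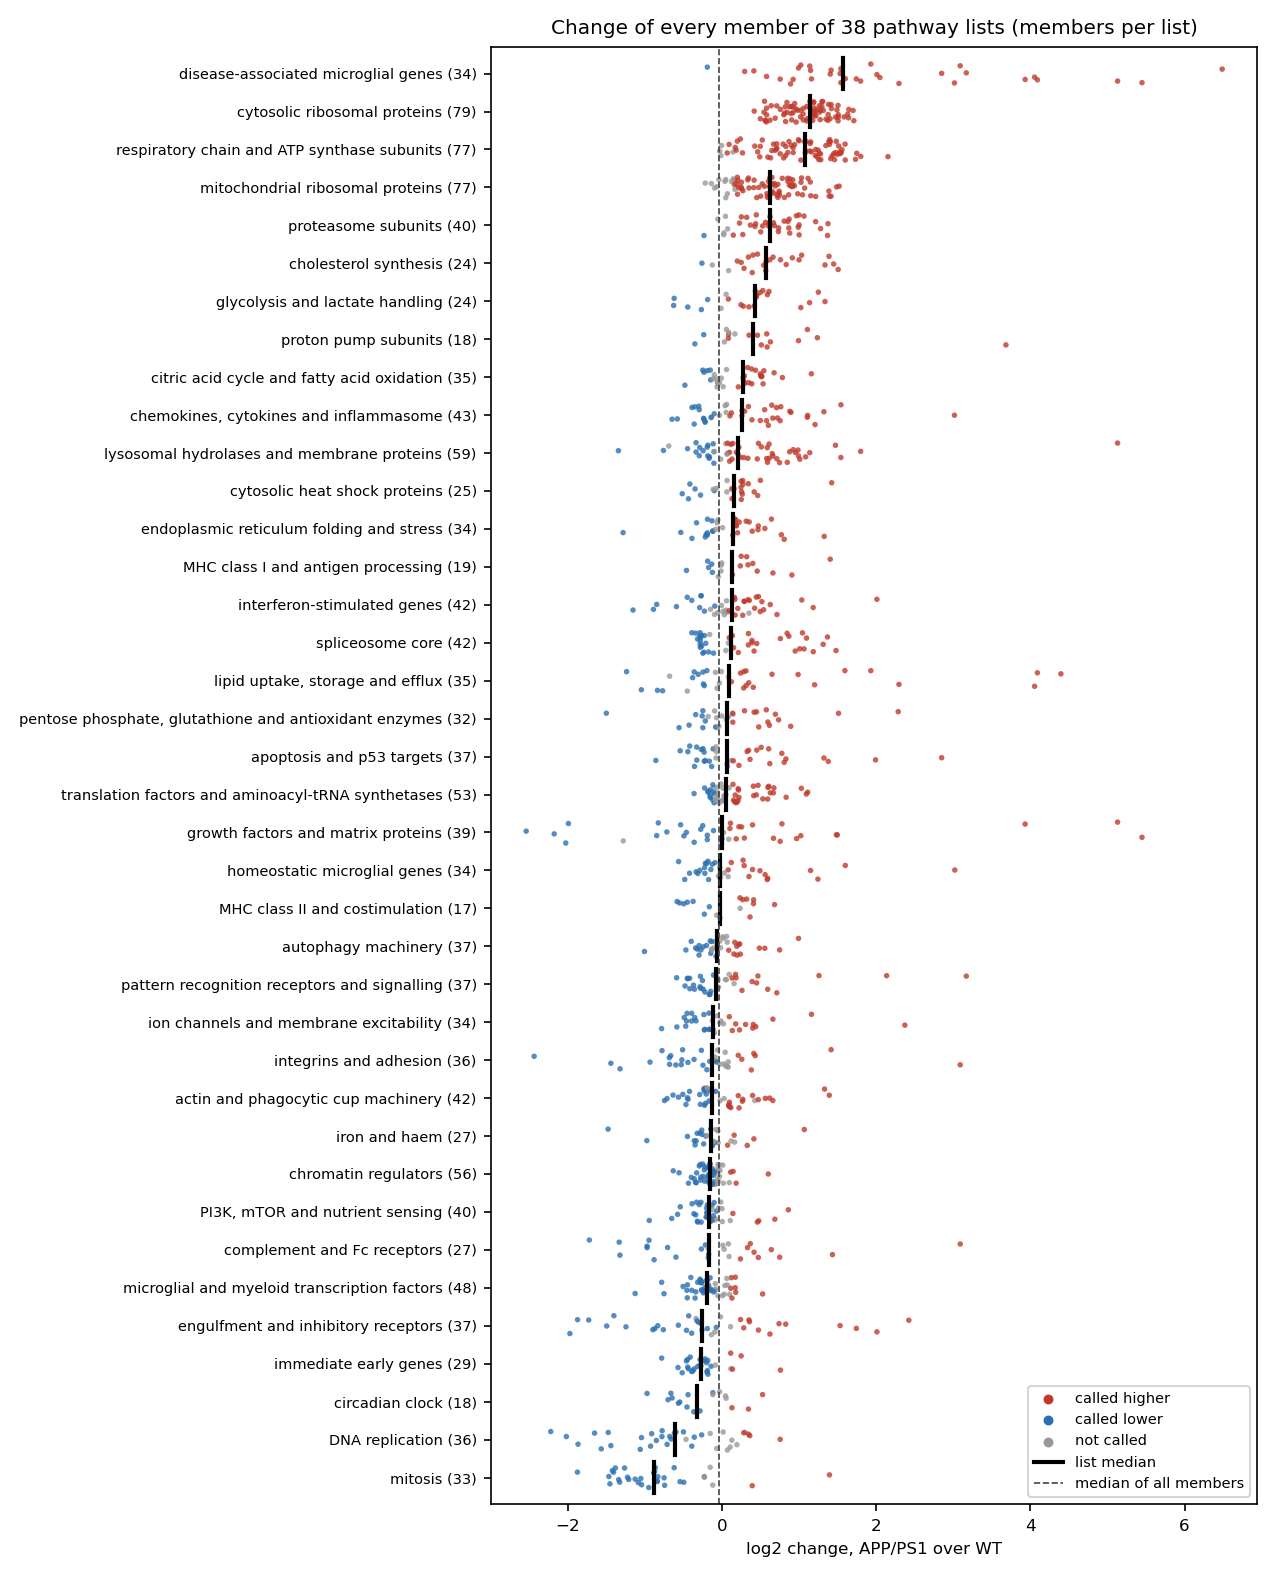
Each point is 1 gene, placed by its log2 change of APP/PS1 over WT, with 1 row per pathway list and the number of members in brackets. Red and blue mark genes called higher and lower by edgeR with TMM scaling, black bars are list medians, and the dashed line is the median of all members (-0.03), which is -0.37 on TPM.

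Cytosolic ribosomal proteins, the protein part of the ribosome, were all called higher, 79 of 79, with 49 past 2-fold. Rps27a, which encodes a ribosomal protein fused to ubiquitin, was at 432, 458 and 447 CPM in WT and 1405, 1510 and 1459 CPM in APP/PS1, a log2 change of 1.71 (SE 0.032, edgeR adjusted p 9.58e-25). Rps25 was at 338, 321 and 312 CPM in WT and 1095, 1053 and 1009 CPM in APP/PS1 (1.70). Every APP/PS1 library was above every WT library for both genes, and for all 79 members. Rpl31 had the same direction but a wider spread, 63.2, 46.7 and 44.1 CPM against 198, 141 and 142 CPM (1.64, SE 0.223). Summed over the list, WT libraries held 31134, 30987 and 30762 CPM and APP/PS1 libraries 66109, 66104 and 64813 CPM. Ribosomal protein genes have many near-identical pseudogenes, and how shared reads were assigned is not given in the sources used here, so single members are uncertain.

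Nuclear-encoded respiratory chain and ATP synthase subunits, which make up the mitochondrial machinery of oxidative phosphorylation, had 73 of 77 members called higher and 0 lower, with 40 past 2-fold. Ndufa1, a subunit of complex I, was at 14.3, 12.4 and 11.4 CPM in WT and 62.5, 53.9 and 52.97 CPM in APP/PS1, a log2 change of 2.15 (SE 0.090, edgeR adjusted p 1.53e-11). The complex IV subunits Cox7a2 and Cox6c changed by 1.80 and 1.75. All complexes took part: by subsets drawn after the values were seen, 36 of 37 complex I genes, 4 of 4 of complex II, 8 of 10 of complex III with cytochrome c, 10 of 10 of complex IV and 15 of 16 of ATP synthase were called higher. Complex II had the lowest median of these, 0.42, against 1.14 for complex I and 1.15 for complex IV. With the length offsets described below these were 0.19, 0.77 and 0.78. Mitochondrial ribosomal proteins, which translate the mitochondrial genome, had 65 of 77 called higher and 0 lower, led by Mrps33 at 16.6, 17.0 and 18.1 CPM in WT and 49.5, 51.1 and 47.6 CPM in APP/PS1 (1.52). The citric acid cycle and fatty acid oxidation enzymes moved less: 19 of 35 were called higher and 6 lower, with a median of 0.27 that was -0.12 on TPM. Echs1, an enzyme of fatty acid oxidation, changed most at 1.16, from 43.1, 41.8 and 41.7 CPM to 93.0, 94.7 and 94.9 CPM.

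The proteasome, which degrades ubiquitin-tagged proteins, had 34 of 40 members called higher and 1 lower. Pomp, the chaperone that assembles its core, was at 63.2, 59.2 and 64.5 CPM in WT and 158, 161 and 165 CPM in APP/PS1 (log2 change 1.37, edgeR adjusted p 8.44e-21). In a subset drawn after the values were seen, all 14 core subunits were called higher with a median of 0.92, led by Psmb6 at 1.37 and Psmb1 at 1.21, against a median of 0.29 for the 14 genes named Psmd. With the length offsets described below these medians were 0.51 and 0.21. Translation factors and aminoacyl-tRNA synthetases did not move as a block. Of 53 members 25 were called higher and 12 lower, with a median of 0.05 that was -0.34 on TPM. Eef1b2, a translation elongation factor subunit, was at 254, 239 and 238 CPM against 561, 509 and 509 CPM (1.11), and the initiation factor subunits Eif3m and Eif3e changed by 1.09 and 1.03. The spliceosome core was split within itself, with 22 of 42 called higher and 17 lower and a median of 0.11, or -0.27 on TPM. With the length offsets described below 16 were higher and 17 lower, with a median of -0.01. Subsets by gene name were drawn after the values were seen. Genes named Snrpa to Snrpg or Lsm, which are not all Sm and Lsm ring proteins, had 15 of 17 called higher. Their median was 0.87, or 0.34 with the length offsets described below, led by Lsm7 (1.48), Snrpe (1.37) and Snrpd2 (1.31). The other 25 members had 7 higher and 16 lower and a median of -0.23.

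These rising lists hold short transcripts, and the change ran with transcript length across all members. Members were split by length into 10 bins of equal size. In the bin with the shortest transcripts (median 1112 nucleotides) the median log2 change was 0.49, and 0.41 for the 1042 of them in no list. In the bin with the longest (median 8444 nucleotides) it was -0.10. Across 13418 genes, which are not independent, Spearman's rho of the change with length was -0.25. Ribosomal proteins had a median length of 1059 nucleotides and respiratory chain subunits of 1141. With per-library offsets by length and GC content, taken from the longest transcript of each gene, the median of the ribosomal list was 0.76 with 78 of 79 called higher. The respiratory chain then had 0.74 with 69 higher, mitochondrial ribosomal proteins 0.35 with 51 higher, and the proteasome 0.37 with 30 higher. Offsets from the median length over a gene's transcripts gave 1.07, 1.00, 0.60 and 0.57 for the same lists. The longest transcript was taken for the reported offsets after both had been seen, and for these lists it is the choice with the smaller remaining changes. For immediate early genes it left the larger median, -0.22 against -0.13 with median lengths.

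**Figure D2:**
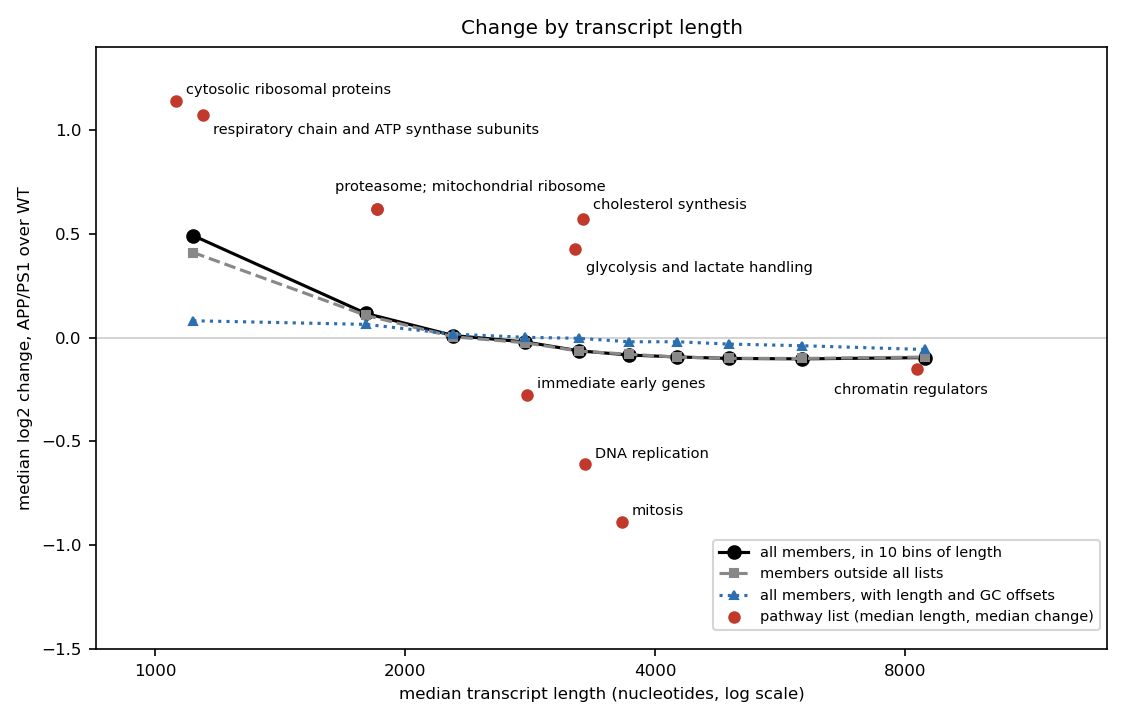
The median log2 change of APP/PS1 over WT is drawn against median transcript length, for 10 bins of all members (black), for members outside all lists (grey) and after length and GC offsets (blue). Red points are pathway lists at their median length and median change, and the ribosomal and respiratory chain lists lie above the black line at the same length, whose shortest bin is at 0.49.

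Most genes of cholesterol synthesis rose, and a few lipid genes rose far. Cholesterol synthesis, the pathway from acetyl-CoA to sterol, had 21 of 24 members called higher and 1 lower, with a median length of 3274 nucleotides and a median change of 0.57, or 0.62 with offsets and 0.18 on TPM. Cyp51, the lanosterol demethylase, was at 18.9, 19.2 and 20.3 CPM in WT and 56.3, 54.8 and 54.7 CPM in APP/PS1 (log2 change 1.51, SE 0.050, edgeR adjusted p 2.33e-19). Msmo1, a sterol oxidase that acts later in the pathway, was at 22.6, 20.0 and 22.2 CPM against 61.8, 56.0 and 59.2 CPM (1.45). Idi1, an isoprenoid isomerase, was low and spread, 4.44, 5.71 and 3.13 CPM against 13.7, 11.8 and 9.38 CPM (1.39, SE 0.338, edgeR adjusted p 0.0114), and did not pass with offsets and the block together (adjusted p 0.0521). The list of lipid uptake, storage and efflux was mixed, with 17 of 35 called higher and 11 lower and a median of 0.08, or -0.30 on TPM. Within it a few genes moved far. Fabp3, a fatty acid binding protein with a short transcript of 823 nucleotides, was at 1.20, 1.43 and 1.03 CPM in WT and 26.0, 26.5 and 24.8 CPM in APP/PS1 (4.40), and Fabp5 went from 8.69, 7.34 and 8.42 CPM to 139, 138 and 129 CPM (4.05). Lpl, lipoprotein lipase, changed by 4.09, and both Lpl and Fabp5 are among the 4 members shared with the disease-associated list. Without those 4 the lipid list had 13 of 31 higher and 11 lower.

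Glycolysis and lactate handling had 17 of 24 members called higher and 5 lower, with a median of 0.43. On TPM 7 were higher and 10 lower, with a median of 0.03. Tpi1, triosephosphate isomerase, was at 89.6, 91.7 and 96.1 CPM in WT and 219.6, 222 and 218 CPM in APP/PS1 (log2 change 1.25), Pgk1, phosphoglycerate kinase, changed by 1.14, and Bnip3, a hypoxia-inducible mitophagy receptor, by 1.34. Antioxidant enzymes had 14 of 32 called higher and 9 lower with TMM, and 8 and 19 on TPM. Prdx4, a peroxiredoxin of the endoplasmic reticulum, was at 15.2, 12.6 and 14.1 CPM against 70.2, 65.6 and 68.2 CPM (2.29), and Prdx1 changed by 1.51. Gsr, glutathione reductase, fell from 74.0, 69.0 and 70.4 CPM to 26.0, 23.3 and 26.1 CPM (-1.501, edgeR adjusted p 2.76e-19).

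Lysosomal hydrolases and membrane proteins had 38 of 59 members called higher and 16 lower, with a median of 0.21 that was -0.18 on TPM. Without the 6 members shared with the disease-associated list, 32 of 53 were higher and 16 lower. Gpnmb, Cd63 and Ctsl, given next, are among those 6. Gpnmb, a membrane glycoprotein of lysosomes and melanosomes, was at 9.59, 7.14 and 8.47 CPM in WT and 277, 307 and 299.97 CPM in APP/PS1 (log2 change 5.13, SE 0.077, edgeR adjusted p 1.33e-16). Cd63, a tetraspanin of late endosomes, changed by 1.80, and Ctsl, a cysteine protease, went from 805, 763 and 777 CPM to 2356, 2217 and 2254 CPM (1.54). Of 18 subunits of the proton pump that acidifies lysosomes, 12 were called higher and 2 lower with TMM, and 8 and 8 on TPM. The median of 0.40 was 0.21 with longest-transcript offsets and 0.015 on TPM. The d2 subunit Atp6v0d2 stood apart, at 1.20, 1.28 and 1.13 CPM in WT and 15.3, 14.96 and 16.3 CPM in APP/PS1 (3.68), next to Atp6v0e (1.24) and Atp6v1g1 (1.11). Autophagy machinery had 12 of 37 called higher and 14 lower with TMM, 5 and 23 with library totals, and 2 and 32 on TPM. Pik3c3, the lipid kinase that starts autophagosomes, fell from 115, 124 and 119 CPM to 58.9, 61.8 and 57.7 CPM (-1.01), Atg10 rose by 0.99 and Gabarapl2 by 0.75.

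Promoters were read where a known element bears on a list that moved. RefSeq promoter windows on GRCm38.p6, from 250 bases before to 50 after each gene start, matched 10898 members. In all 13 letter patterns were tried on 12 lists, and the 3 shown here were kept after their shares had been seen, so no share is a test. For these 3 the match was then widened from the first promoter of a gene to any of its promoters, and to all 38 pathway lists, again after the shares were seen. CACGTG, read on both strands and the same on each, is the core letters of the element bound by TFEB and related factors that regulate lysosomal genes, and of other factors. It was in 11.4% of all member promoters, in 14 of 51 lysosomal ones (27.5%) and in 4 of 12 of the proton pump (33.3%). It was also frequent in lists of other functions, in 34.2% of translation factors and aminoacyl-tRNA synthetases, 33.3% of the circadian clock, 27.8% of cholesterol synthesis, and in 6 of 24 promoters of both glycolysis and immediate early genes. Of the 14 lysosomal genes with it, 7 were called higher and 5 lower. Stretches of 80 bases upstream of 3 genes are shown, because Lamp1 and Atp6v0b hold the letters more than once and Ctsd once, on the strand of the gene with matches in capitals.
Lamp1, chr8:13159081-13159160, plus strand: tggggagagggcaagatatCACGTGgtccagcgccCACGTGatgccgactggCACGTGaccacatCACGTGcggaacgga
Atp6v0b, chr4:117887330-117887409, minus strand: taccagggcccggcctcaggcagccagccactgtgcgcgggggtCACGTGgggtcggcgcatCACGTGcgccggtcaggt
Ctsd, chr7:142387883-142387962, minus strand: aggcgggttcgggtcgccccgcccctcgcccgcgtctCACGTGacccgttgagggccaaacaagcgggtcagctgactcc
These genes were picked for display after their values were seen. Gla, called lower at -0.29, and Mcoln1 and Cln3, neither called, also hold the letters more than once. Lamp1, a lysosomal membrane protein, changed by 0.28, Atp6v0b, a proton pump subunit, by 0.51 and Ctsd, an aspartic protease, by 1.14.

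Folding and stress genes moved in parts. Endoplasmic reticulum folding genes had 18 of 34 called higher and 12 lower, with a median of 0.15, or -0.24 on TPM. Sdf2l1, an endoplasmic reticulum chaperone component, was at 31.9, 30.8 and 30.8 CPM in WT and 80.7, 78.0 and 75.6 CPM in APP/PS1 (log2 change 1.32), and Manf changed by 0.81 and Selenos by 0.77. Heat shock proteins had 15 of 25 higher and 6 lower, with a median of 0.16, or -0.24 on TPM. Hspe1, a mitochondrial chaperonin, rose by 1.42, while the inducible Hspa1a fell by 0.52 on the log2 scale, from 293, 302 and 288 CPM to 208, 212 and 197 CPM.

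Genes that define resting microglia were not uniformly lower. Of 34 homeostatic genes 14 were called higher and 15 lower with TMM, and 8 and 24 on TPM, with a median of -0.02, or -0.42 on TPM. All 13627 members had 1626 higher and 9367 lower on TPM. Without the 2 members shared with the disease-associated list, which include Serpine2, 12 of 32 were higher and 15 lower with TMM. Changes ran from -0.56 to 3.02 over the list, and the genes with the largest changes are named. Fcrls, an Fc receptor-like gene of mouse microglia, was at 198, 191 and 197 CPM in WT and 1583, 1596 and 1569 CPM in APP/PS1 (log2 change 3.02, SE 0.028, edgeR adjusted p 2.08e-31). Serpine2, a protease inhibitor, changed by 1.599, and the receptor Gpr34 went from 624, 580.2 and 599.6 CPM to 1478, 1354 and 1439 CPM (1.24). Transcription factors of microglia and myeloid cells leaned lower, 7 of 48 higher and 32 lower with a median of -0.19, which was -0.06 with longest-transcript and -0.14 with median-length offsets. Klf2 fell from 446, 478 and 459.7 CPM to 261, 274 and 269 CPM (-0.78), Runx2 by 1.13 on the log2 scale and Mycl by 0.75.

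Immediate early genes, which respond within minutes to stimulation and to cell isolation, had 23 of 29 members called lower and 4 higher. The median of -0.27 was -0.22 with longest-transcript offsets and -0.13 with median-length offsets. Their sum was 36879, 38521 and 37552 CPM in WT and 30915, 32192 and 31717 CPM in APP/PS1. Fosl2, a subunit of AP-1, fell from 299, 303 and 300.4 CPM to 196, 203 and 208 CPM (log2 change -0.57). Rgs1, a regulator of G protein signalling, went the other way, from 246, 224 and 233 CPM to 409, 387 and 394 CPM (0.76).

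In the clock, chromatin and growth signalling lists more genes were called lower than higher. The circadian clock had 11 of 18 members called lower and 3 higher. The repressors Cry1 and Per2 fell by 0.70 and 0.66 on the log2 scale, and Nr1d1 went from 86.6, 98.7 and 97.0 CPM to 53.5, 62.4 and 64.2 CPM (-0.65). Chromatin regulators had 39 of 56 called lower and 4 higher, with a median of -0.15. It was -0.05 with longest-transcript offsets, with 22 lower and 9 higher, and -0.10 with median-length offsets, with 31 lower and 8 higher. Their transcripts were long, with a median of 8269 nucleotides. Dnmt1, the maintenance DNA methyltransferase, fell from 52.0, 52.96 and 52.6 CPM to 33.2, 34.9 and 33.5 CPM (-0.63), Hdac7 fell by 0.56 and Hdac9 rose by 0.60. Genes of PI3K, mTOR and nutrient sensing had 27 of 40 called lower and 5 higher. Mlst8, a subunit of mTOR complexes, fell from 16.1, 17.2 and 16.7 CPM to 8.79, 8.99 and 8.19 CPM (-0.94), whereas the mTOR-activating GTPases Rheb and Rragd rose by 0.86 and 0.69.

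Immune pathways were mixed, with a few genes moving far. Chemokines, cytokines and inflammasome genes had 25 of 43 called higher and 13 lower, and the median of 0.26 was -0.02 with longest-transcript offsets, 0.20 with median-length offsets and -0.13 on TPM. Without the 4 members shared with the disease-associated list, 21 of 39 were higher and 13 lower, with a median of 0.12. Ccl6 and Csf1 are among those 4. Ccl6, a CC chemokine, was at 86.6, 87.8 and 89.4 CPM in WT and 702, 714 and 715 CPM in APP/PS1 (log2 change 3.01, edgeR adjusted p 9.83e-31). Csf1, the growth factor of macrophages, changed by 1.54 and Mif by 1.32. Pattern recognition genes had 12 of 37 higher and 18 lower. Among them Clec7a, the beta-glucan receptor Dectin-1, went from 70.5, 67.9 and 65.7 CPM to 635, 588 and 613 CPM (3.17). It is also on the disease-associated list. Ly86, the partner of the Toll-like protein RP105, changed by 2.14, and Ly96, the partner of Tlr4, by 1.26.

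MHC class I and antigen processing had 10 of 19 members called higher and 5 lower, with a median of 0.14, or -0.22 on TPM. B2m, the light chain of MHC class I, was at 1547, 1477 and 1554 CPM in WT and 4151, 3879.6 and 4079 CPM in APP/PS1 (log2 change 1.404). It is also on the disease-associated list. Psme2, a proteasome activator subunit, changed by 0.91, and the immunoproteasome subunit Psmb8 by 0.66. MHC class II and costimulation had 7 of 17 called higher and 7 lower with TMM, and 1 and 11 on TPM. H2-Oa, part of the H2-O chaperone, changed by 0.68, Ifi30, a lysosomal thiol reductase, fell by 0.58 on the log2 scale, and the costimulatory ligand Icosl fell by 0.55. Genes of the MHC have close copies, so their reads may be split between members.

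Interferon-stimulated genes went both ways, 21 of 42 called higher and 11 lower, with a median of 0.13 that was -0.02 with longest-transcript offsets, 0.09 with median-length offsets and -0.26 on TPM. Ifi27l2a was at 16.8, 18.1 and 15.5 CPM in WT and 71.3, 66.3 and 65.0 CPM in APP/PS1 (log2 change 2.01), and Bst2, the virus-tethering protein tetherin, was at 46.9, 46.2 and 49.0 CPM against 106, 109.7 and 107 CPM (1.18). Oas3, an oligoadenylate synthetase, fell from 13.1, 13.9 and 12.9 CPM to 5.84, 6.67 and 5.39 CPM (-1.15, edgeR adjusted p 1.35e-11). GAAA, any 2 bases and GAAA again, read on both strands, is the core of the interferon-stimulated response element. It was in 18 of 32 promoters of the list (56.3%) and in 3.95% of all member promoters. Of the 18 genes with it 7 were called higher and 5 lower. The windows of 1 gene that fell and 2 that rose are shown because they hold the same letters, on the strand of the gene with matches in capitals.
Bst2, chr8:71537552-71537631, minus strand: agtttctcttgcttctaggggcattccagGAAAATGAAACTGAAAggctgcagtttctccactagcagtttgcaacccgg
Isg15, chr4:156200840-156200919, minus strand: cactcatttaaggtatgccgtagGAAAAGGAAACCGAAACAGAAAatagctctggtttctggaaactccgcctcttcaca
Oas3, chr5:120777690-120777769, minus strand: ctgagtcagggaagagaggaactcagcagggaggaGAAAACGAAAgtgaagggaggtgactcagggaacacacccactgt
Isg15, a ubiquitin-like modifier picked for display after its value was seen, changed by 0.50.

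Surface and matrix genes went both ways. Growth factors and matrix proteins had 17 of 39 called higher and 16 lower, from a log2 change of -2.54 to 5.45, with a median of 0.00 that was -0.36 on TPM. On TPM 10 were higher and 27 lower. Without the 5 members shared with the disease-associated list, Spp1 and Igf1 among them, 13 of 34 were higher and 15 lower with TMM. Spp1, osteopontin, was at 22.8, 20.9 and 19.2 CPM in WT and 881, 929.6 and 932 CPM in APP/PS1 (5.45, SE 0.045, edgeR adjusted p 1.32e-32), and Igf1, a growth factor, went from 9.44, 7.09 and 8.82 CPM to 137, 122 and 128 CPM (3.93). Complement and Fc receptor genes had 9 of 27 higher and 13 lower. Fcer1g, the common Fc receptor gamma chain, changed by 1.43, while Cfp, properdin, fell from 21.4, 21.7 and 21.0 CPM to 7.26, 6.03 and 6.14 CPM (-1.72). Integrins and adhesion genes had 7 of 36 higher and 20 lower. Without the 2 members shared with the disease-associated list, Itgax among them, 5 of 34 were higher and 20 lower. Itgax, CD11c, changed by 3.09, whereas Itgb7, an integrin subunit of leukocytes, fell by 1.44. Engulfment and inhibitory receptors had 12 of 37 higher and 20 lower. Without the 3 members shared with the disease-associated list, Tyrobp among them, 9 of 34 were higher and 20 lower. Pdcd1, the checkpoint receptor PD-1, was at 4.24, 5.37 and 4.85 CPM against 24.6, 28.1 and 24.9 CPM (2.42), the adaptor Tyrobp changed by 2.01, and Trem1, a receptor of neutrophils and monocytes, fell by 1.97.

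The remaining lists were mixed as well. Actin and phagocytic cup genes had 16 of 42 called higher and 22 lower with TMM, and 6 and 34 on TPM. They include the actin-binding Tmsb4x at 1926, 1795 and 1785 CPM against 4939, 4798 and 4704 CPM (log2 change 1.39), Capg at 1.33 and the scaffold Iqgap1 at -0.75. Ion channels had 11 of 34 higher and 17 lower, and the calcium channel subunit Cacna1a went from 9.04, 9.02 and 9.60 CPM to 46.0, 48.0 and 49.2 CPM (2.37), with the potassium channel Kcna3 at 1.16 and its subunit Kcnab2 at -0.78. Iron and haem genes had 5 of 27 higher and 15 lower, with the metalloreductase Steap4 at -1.48 and biliverdin reductase Blvra at 1.07. Apoptosis and p53 targets had 16 of 37 called higher and 15 lower with TMM, and 10 and 22 on TPM, with a median of 0.06 that was -0.06 with longest-transcript offsets and -0.33 on TPM. The anti-apoptotic paralogs Bcl2a1d, Bcl2a1b and Bcl2a1a changed by 1.99, 1.38 and 1.32, and since they are near-identical copies their reads cannot be assigned with certainty.

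Most cell cycle genes fell. Of 33 mitosis genes 28 were called lower and 2 higher, with 15 lower past 2-fold. Tpx2, a spindle assembly factor, was at 11.4, 11.3 and 10.48 CPM in WT and 4.04, 4.20 and 4.26 CPM in APP/PS1 (log2 change -1.41, edgeR adjusted p 1.16e-12), and Cdc20, an activator of the anaphase-promoting complex, fell by 1.42. Pttg1, securin, went against the list, from 19.2, 16.4 and 18.5 CPM to 45.0, 46.7 and 50.4 CPM (1.39). DNA replication genes had 23 of 36 called lower and 4 higher. Rrm2, a ribonucleotide reductase subunit, went from 17.8, 16.7 and 16.6 CPM to 3.71, 3.66 and 3.56 CPM (-2.22), E2f2 fell by 1.65 and Uhrf1 by 1.48. In a subset drawn by name after the values were seen, all 7 Mcm genes of the list were called lower. The mitosis sum was 427, 406 and 402 CPM in WT and 264, 259.6 and 266 CPM in APP/PS1.

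Markers of monocytes and neutrophils, erythroid cells and B cells were lower as well, and those of T and NK cells were mostly higher. All 11 monocyte and neutrophil markers were called lower, with sums of 2019 to 2051 CPM in WT and 799 to 828 CPM in APP/PS1. All 9 erythroid markers were called lower, with sums of 1241 to 1296 CPM against 248 to 276 CPM. Of 6 B cell markers 5 were called lower, 44.6 to 47.8 CPM against 19.8 to 21.8 CPM, and 7 of 9 T and NK cell markers were higher, 43.8 to 45.4 CPM against 71.2 to 71.8 CPM. No listed blood marker in the table was at 0 in every library of a group. Maturing blood cells divide, and the part of these cells in the fall of cell cycle genes, and of Trem1 and Cfp, was not tested. In bulk RNA fewer cells of a type and less RNA per cell cannot be told apart.

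**Figure D3:**
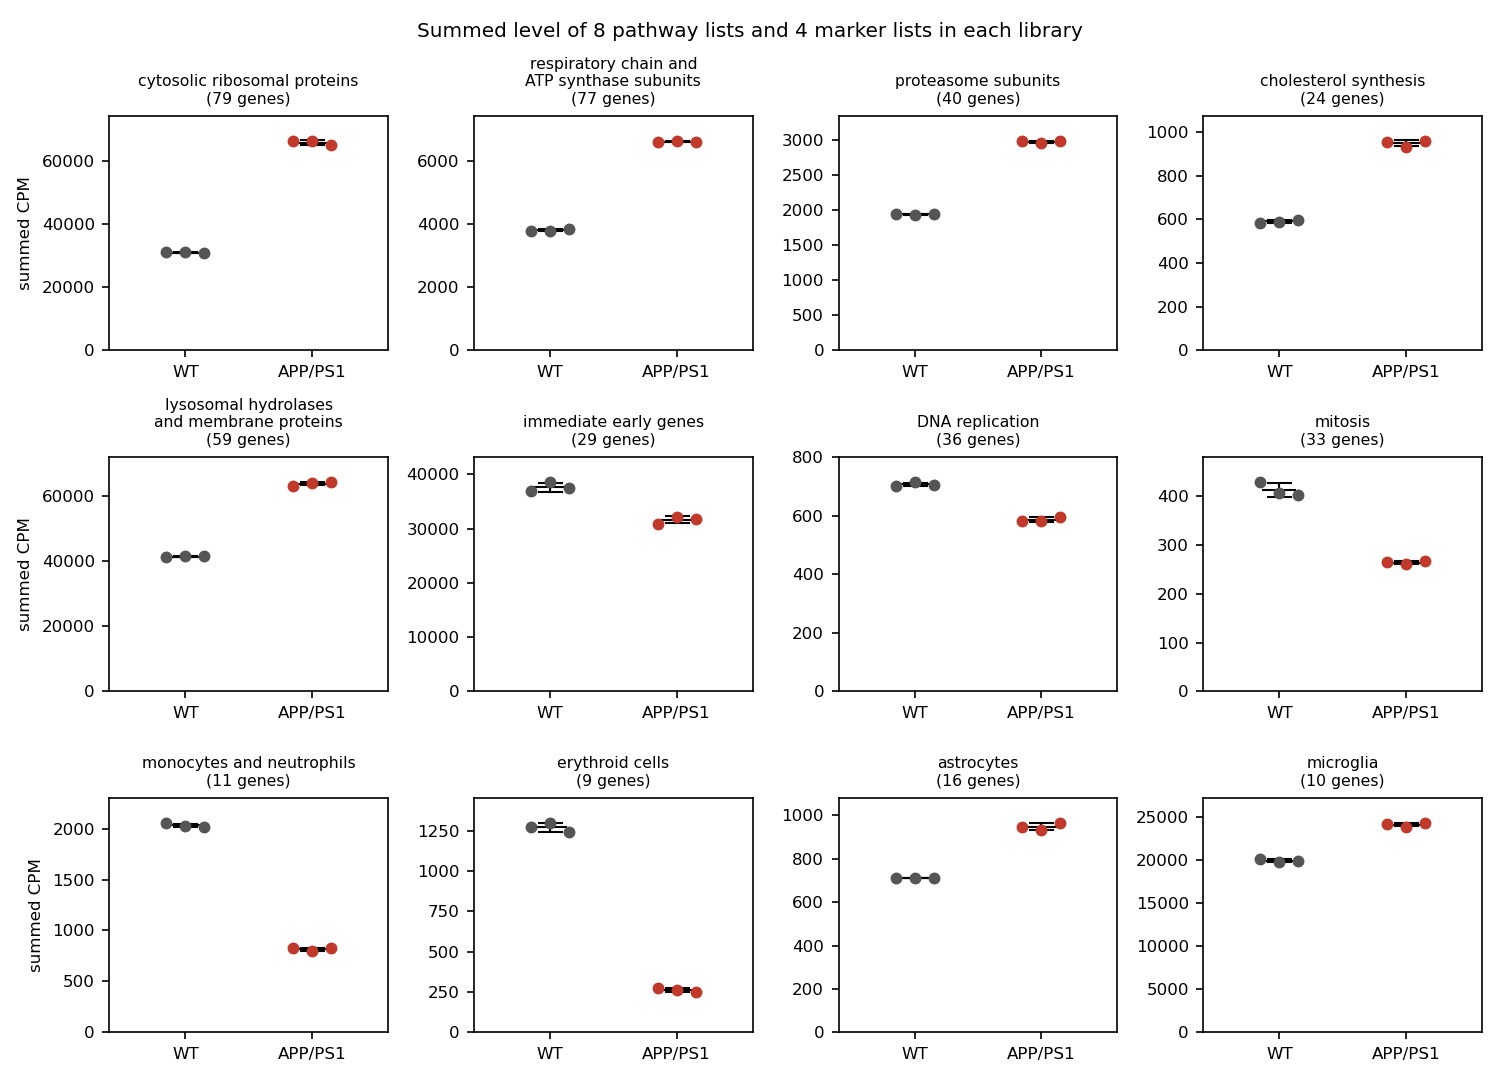
Summed CPM with TMM scaling of 8 pathway lists and 4 marker lists in each of the 3 WT and 3 APP/PS1 libraries, with black bars for the mean and SD and all axes starting at 0. The groups do not overlap in any panel, and the monocyte and neutrophil sum is 2019 to 2051 CPM in WT against 799 to 828 CPM in APP/PS1.

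TTTGAA, read on both strands, is the core of the cell cycle homology region found in genes expressed at mitosis. It was in 20 of 28 mitosis promoters (71.4%) and in 14.7% of all member promoters. Of those 20 genes 18 were called lower and 0 higher, while Pttg1 and Cks2, the members that rose, had no match in the window. Ccnb1, Cdc25b, Bub1, Birc5 and Cenpe had no match either and were called lower. The median change was -0.92 with the letters and -0.84 without. The windows of 3 genes with a match close to the start are shown, on the strand of the gene with matches in capitals, where TTCAAA is the same element read from the other strand.
Top2a, chr11:99024190-99024269, minus strand: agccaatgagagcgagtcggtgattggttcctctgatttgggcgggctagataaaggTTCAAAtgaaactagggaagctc
Cdc20, chr4:118437344-118437423, minus strand: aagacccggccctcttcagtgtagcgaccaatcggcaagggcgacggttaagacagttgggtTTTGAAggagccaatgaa
Kif11, chr19:37376302-37376381, plus strand: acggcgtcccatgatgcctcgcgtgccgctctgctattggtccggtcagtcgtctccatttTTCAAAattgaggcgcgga
Top2a, a topoisomerase, and Kif11, a spindle motor, were picked for display after their values were seen and fell by 1.38 and 1.34 on the log2 scale.

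**Figure D4:**
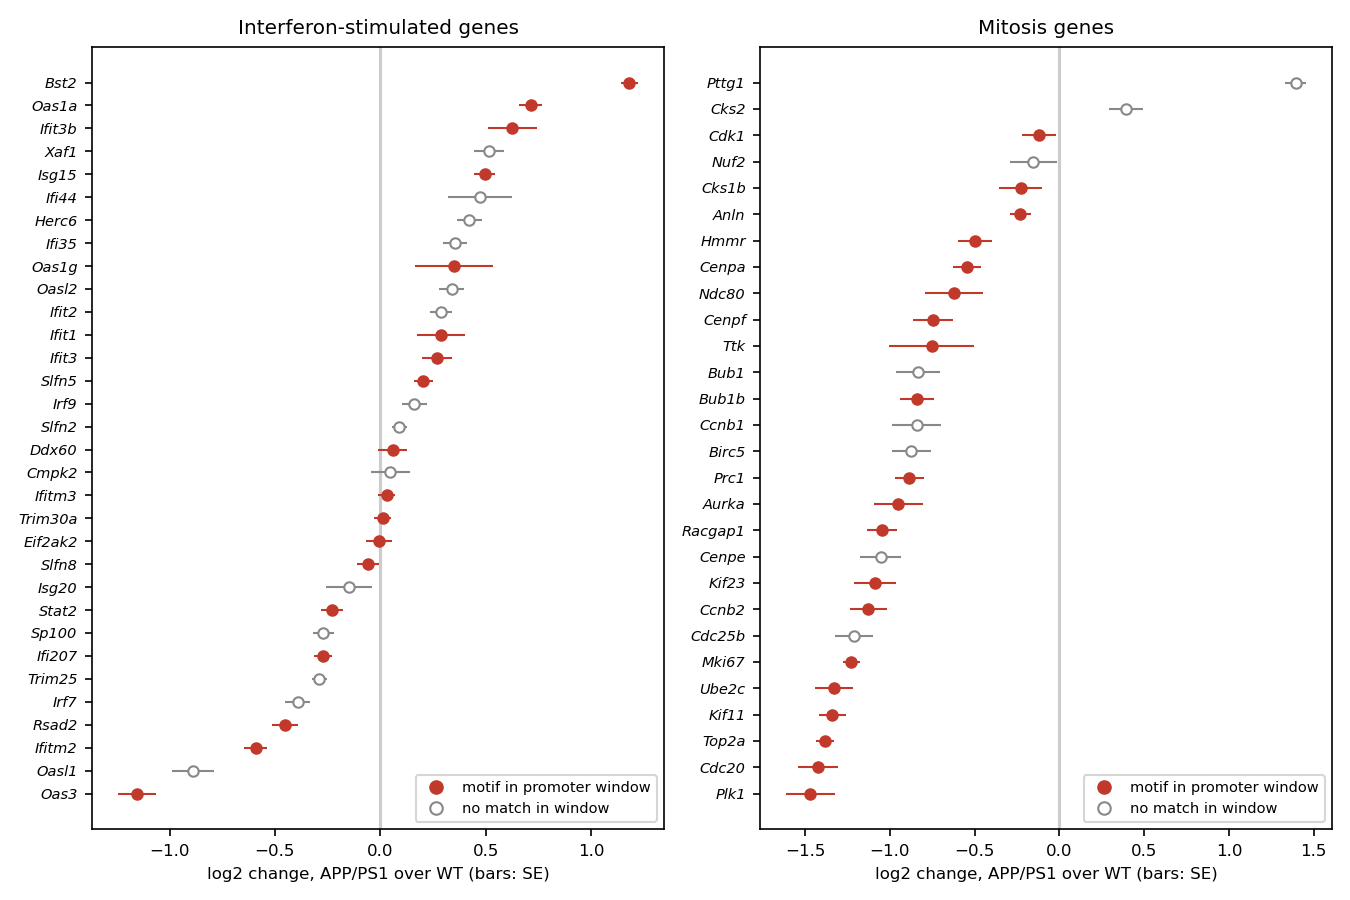
The log2 change of APP/PS1 over WT with TMM scaling and its standard error is drawn for each interferon-stimulated gene (left) and mitosis gene (right) that has a promoter window, with filled red points for genes whose window holds the interferon or the mitosis letters given in the text. Interferon genes with the motif lie on both sides of 0 (7 called higher, 5 lower), and 18 of 20 mitosis genes with theirs were called lower.

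Outside every list, the 10 largest rises among called genes with a mean of at least 10 CPM are given here. Baiap2l2, a membrane-bending protein gene at chr15:79258195-79285556, was at 0.399, 0.493 and 0.343 CPM in WT and 34.0, 37.2 and 38.8 CPM in APP/PS1, a log2 change of 6.46 (SE 0.148, edgeR adjusted p 7.90e-22). Lgi2, a secreted leucine-rich repeat gene, was at 1.15, 1.03 and 1.03 CPM against 28.6, 24.5 and 27.6 CPM (4.64). Egln3, a prolyl hydroxylase of the hypoxia pathway, was at 3.15, 3.15 and 3.58 CPM against 42.9, 38.7 and 45.4 CPM (3.68). Cox6a2, known as the muscle form of a complex IV subunit, changed by 3.56, from 1.85, 2.56 and 2.64 CPM to 28.9, 28.7 and 26.1 CPM. Mamdc2 and Pianp both changed by 3.45, Minar1 by 3.28, Actr3b, an actin-related protein, by 3.21, Fcrl1, an Fc receptor-like gene, by 3.18 and the CD200 receptor-like gene Cd200r4 by 3.06. In all of these every APP/PS1 library was above every WT library, as the choice required.

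Of the 10 largest falls chosen in the same way, 6 were granule genes of neutrophils or eosinophils, a grouping made after the names were seen. Mpo, myeloperoxidase of neutrophil granules, at chr11:87793784-87804412, was at 292, 302 and 315 CPM in WT and 4.21, 6.14 and 5.07 CPM in APP/PS1, a log2 change of -5.88 (SE 0.064, edgeR adjusted p 7.28e-28). Elane, neutrophil elastase, was at 88.8, 93.7 and 93.1 CPM against 1.15, 1.13 and 1.45 CPM (-6.20). The neutrophil proteases Ctsg and Prtn3 changed by -5.57 and -5.55, and the eosinophil granule genes Epx and Prg2 by -3.89 and -3.35. Eps8l1 was at -4.44, the adhesion receptor Adgrg5 at -3.63 and Rab44 at -3.54. Nmnat1, the nuclear enzyme of NAD synthesis, fell from 29.3, 29.4 and 28.9 CPM to 4.86, 4.25 and 3.77 CPM (-2.76), and it is not a known granule gene. The monocyte and neutrophil markers that fell with these genes are given above.

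**Figure D5:**
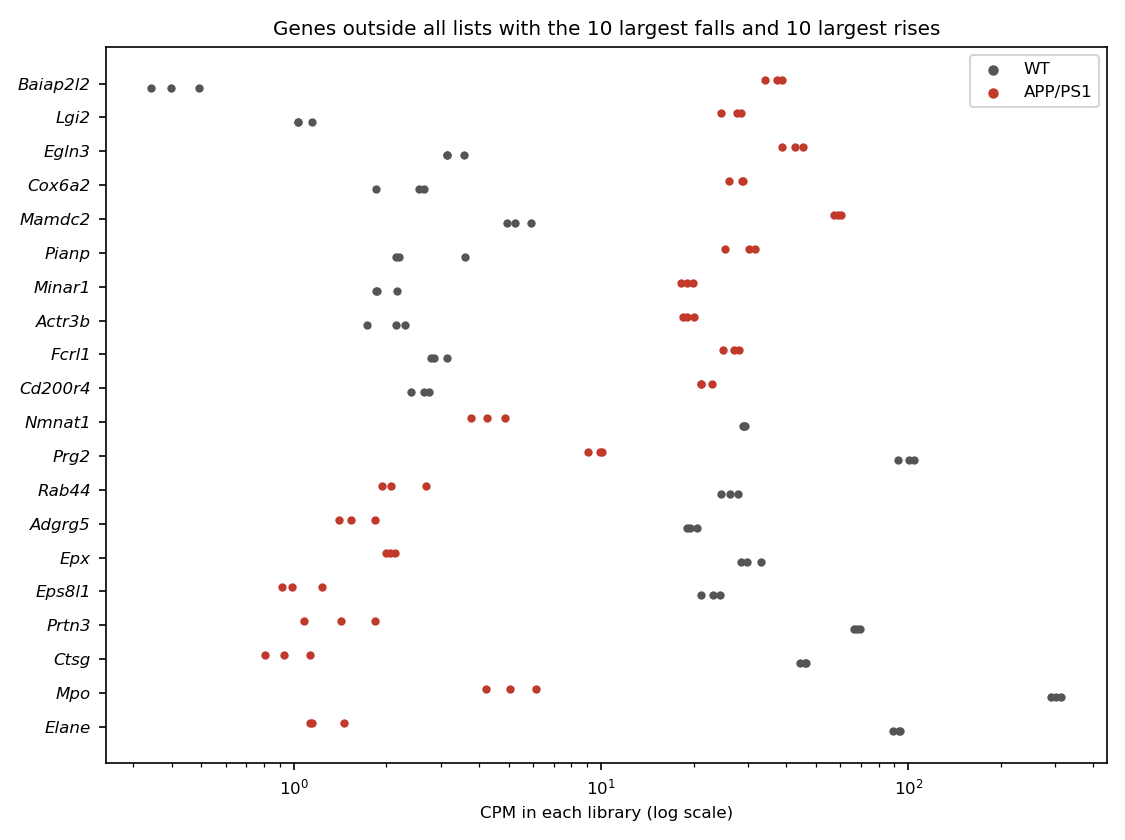
CPM with TMM scaling on a log axis in each of the 3 WT (grey) and 3 APP/PS1 (red) libraries, for the 10 largest rises and 10 largest falls among called genes outside all lists with a mean of at least 10 CPM. Elane goes from 88.8 to 93.7 CPM in WT down to 1.13 to 1.45 CPM in APP/PS1, and the groups are apart in every line of the plot because the choice required it.

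Markers of other brain cells were measured as a background. Of 16 astrocyte markers 14 were called higher and 1 lower with TMM, and 5 and 4 on TPM, with sums of 710.4 to 714 CPM in WT and 932 to 963 CPM in APP/PS1. Neuronal markers had 6 of 13 higher and 3 lower, against 0 and 4 on TPM. Oligodendrocyte markers had 3 of 10 higher and 3 lower, against 1 and 8 on TPM. Vessel markers had 1 of 12 higher and 8 lower. Border macrophage markers had 4 of 9 higher and 4 lower, with sums of 562 to 571 CPM against 426 to 441 CPM. Among these markers in the table, 0 were at 0 in every library of a group, and their part in the pathway lists was not tested.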

How the data were processed

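Single-end 50-nucleotide poly-A reads of 9 libraries were processed by the authors into a deposited table. Per the submitters' processing notes HISAT, Bowtie2 and DESeq2 were used with build GRCm38.p6, and their roles and versions are not given in the sources used here. Per the file headers each library has a deposited estimated count, FPKM, TPM and a deposited normalised count, a signal not used here. Estimated counts were rounded and fitted with edgeR 4.0.16 (R 4.3.3, quasi-likelihood test, TMM, filterByExpr by group, all 9 libraries, 14696 genes), with Benjamini-Hochberg adjustment over all of them and a threshold of 0.05. CPM uses TMM-scaled library sizes. The deposited TPM and FPKM values were tested as log2(value + 1), and FPKM also with 0.1, by limma 3.58.1. DESeq2 1.42.0 was an alternative.

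Members and lists were chosen with earlier results of these data known. Named genes were up to 3 per list with the largest called change whose groups did not overlap and whose mean reached 5 CPM, and outside lists the 10 highest and 10 lowest with at least 10 CPM, leaving out unnamed genes and pseudogenes. Some genes this rule chose are not reported here. Some subsets, display genes and motifs were chosen after seeing values, as stated beside them. Of the members, 363 had a mean under 1 CPM in 1 group, so they entered through the other group. An exact test of 3 libraries against 3 cannot give a p under 0.1.

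Same-numbered libraries deviated together (correlations of deviations 0.39, 0.29 and 0.15 over 9163 genes), so replicate numbers were treated as pairs in the block. Transcript lengths came from GENCODE mouse release M21 and promoters and coordinates from RefSeq on GRCm38.p6. The steps were tested on simulated data.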

Additional observations from a re-analysis of the deposited data

How the results depend on the processing

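The number of called members stayed within 1.5 times of 8440 in every alternative, from 7111 at an adjusted p of 0.01 to 10993 on TPM, and from 7803 to 8019 with each library left out in turn. With the replicate block 9090 were called. Of the 8440, 6973 were also called on TPM but only 6192 with the same sign, and 6531 with length and GC offsets, 6427 with the same sign. The number past 2-fold was 1086, and 1088 to 1119 with each library left out, 1090 with the replicate block, 846 with length and GC offsets, 754 on TPM and 612 on log2(FPKM + 1), where the pseudocount shrinks low genes. App had the opposite sign with library totals (-0.084), TPM (-0.33), log2(FPKM + 1) (-0.072) and log2(FPKM + 0.1) (-0.073), Prnp on TPM (-0.098) and Gja1 on TPM (-0.14). Gja1 did not pass with library totals or on FPKM. Idi1 did not pass at an adjusted p of 0.01, nor with offsets and block together. Apart from App, Prnp, Gja1 and Idi1, every gene that the naming rule chose and the text reports kept its direction and call in the alternatives run, and among these genes the block changed the call of App alone. Medians of the 38 pathway lists moved down with library totals and further on TPM, and among these lists length offsets lowered the ribosomal and respiratory chain medians most. The median-length offsets were added after seeing the data, with 8281 members called and 1008 past 2-fold. The cause of these differences was not tested. Depth limits precision most for members near 1 CPM.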

Other observations

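The 10 letter patterns that were tried in promoters and not shown in the report gave these shares, read on the first promoter of each gene. CCAAT was in 15 of 18 cholesterol synthesis promoters (83.3%), 23 of 28 mitosis promoters (82.1%) and 12 of 15 circadian clock promoters, against 38.7% of all members. ACCAAT was in 13 of 28 mitosis promoters (46.4%) and 7 of 18 of cholesterol synthesis (38.9%), against 12.7%. TGACG was in 7 of 12 proton pump promoters (58.3%) and 30 of 58 ribosomal ones (51.7%), against 30.5%. CCGGAAG was in 23 of 58 ribosomal promoters (39.7%) and 13 of 33 of the proteasome (39.4%), against 17.3%. CTTTC at the gene start was in 11 of 58 ribosomal promoters (18.97%) against 2.48%. AAGATGG was in 6 of 33 proteasome promoters (18.2%) against 6.99%. TTTCGCGC was in 4 of 27 DNA replication promoters (14.8%) against 0.596%. TGACGTCA was in 6 of 58 ribosomal promoters (10.3%) against 3.12%. The CArG box was in 1 of 24 immediate early promoters (4.17%) against 1.34%, and CACGCCA or CACCCCA in 4 of 18 of cholesterol synthesis (22.2%) against 10.9%. The 3 patterns shown in the report, read on the first promoter alone, were in 9.90% (CACGTG), 3.21% (the interferon letters) and 12.2% (TTTGAA) of all members. For each pattern the lists named are the highest or near the highest of the 12 searched, so high shares are partly a matter of choice.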
